A study of Mus musculus with 14 samples.

Results

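The 37 genes described here make up the interferon response and RNA sensing system of mouse embryonic stem cells. They are the transcription factors that carry an interferon signal to DNA, the sensors of foreign RNA, and the antiviral genes that the signal switches on. They were taken as a list of gene symbols, and all 37 matched a row in both count tables, which hold 37991 Ensembl gene IDs each. The question put to them was whether loss of DNA methylation gives an interferon state.

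Poly(A) RNA was sequenced from J1 embryonic stem cells (129S4/SvJae) in 14 libraries, 2 for each of 7 groups. Experiment 1 had 4 groups. These were Dnmt-TKO cells, which lack the DNA methyltransferases Dnmt1, Dnmt3a and Dnmt3b (TKO), given PRT4165, which inhibits the ubiquitin ligase activity of the polycomb complex PRC1; TKO cells given the vehicle DMSO; wild-type J1 cells given PRT4165; and wild-type J1 cells given DMSO. Experiment 2 had 3 groups with no stated treatment. These were Tet1-KO Dnmt-TKO cells (Tet1-KO TKO), which also lack Tet1, an enzyme that oxidises methylated cytosine; TKO cells; and wild-type J1 cells. All groups share the J1 background. The labels give no dose or duration of PRT4165 and no number of clones per genotype, so any other difference between the lines cannot be told apart from the named mutations. Nothing in them says that the 2 replicates of a group came from separate cultures, and p-values here reflect the spread between libraries, which could be technical alone.

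Cells detect viral and other double-stranded RNA with the helicases RIG-I (gene Ddx58) and MDA5 (Ifih1), which signal through MAVS to the factors IRF3 and IRF7 and so switch on interferon genes. Secreted interferon binds its receptor, and STAT2 and IRF9 then act within the complex ISGF3, which binds the interferon-stimulated response element in the promoters of antiviral genes. Embryonic stem cells are known for a weak interferon response, and in other cell types removal of DNA methylation is known to raise transcripts that these sensors can bind.

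Total counts per library ran between 25588815 and 37399837 in experiment 1, and between 23354015 and 41844823 for experiment 2. Levels are CPM, counts set relative to the library total and scaled by TMM within an experiment, so levels are compared within and not between experiments. The targeted genes went with the labels. Dnmt1, Dnmt3a and Dnmt3b were lower in TKO than in wild-type cells by log2 changes between -2.14 and -0.97 in the 3 settings, and Tet1 averaged 168 ± 47.0 CPM in Tet1-KO TKO cells and 766 ± 35.0 CPM in TKO cells (SD, n = 2 each). Dnmt3a was also lower in Tet1-KO TKO than in TKO cells, at 15.03 and 21.63 CPM against 37.95 and 37.44 CPM. The log2 difference was -1.04 (adjusted p = 0.000599, edgeR). Gene counts do not show which exons are missing. All 11 stem cell markers were at 1 CPM or more in every library, and the leukocyte markers Ptprc, Lyz2, Adgre1 and Tyrobp were at 0.218 CPM or less. The summed level of 10 trophoblast markers, led by the keratin gene Krt8, was 884 to 920 CPM in TKO vehicle cells against 85.5 to 96.1 CPM in wild-type vehicle cells, 1234 to 1236 CPM in TKO inhibitor cells against 134 to 139 CPM in wild-type inhibitor cells, and 206 to 208 CPM in untreated TKO cells against 75.8 to 79.4 CPM in untreated wild-type cells. The summed level of the stem cell markers was 4777 to 4785 CPM in TKO vehicle cells against 6225 to 6318 CPM in wild-type vehicle cells. That of 12 leukocyte markers was 74.2 to 77.5 CPM in TKO vehicle cells and 276 to 312 CPM in wild-type vehicle cells, led by Laptm5. Of these 12, 4 to 6 were at 1 CPM or more in each library. With vehicle 2 of 8 tested were higher in TKO cells and 2 lower, 25% each beside 34.8% and 34.2% of all genes. Their log2 changes ran from -2.57 to 6.06. Untreated, 2 of 8 were higher and 2 lower, 25% each beside 25.9% and 24.3% of all genes. Neural ectoderm markers summed to 204 to 211 CPM in TKO vehicle cells and 97.3 to 98.6 CPM in wild-type vehicle cells, endothelial markers to 140.8 CPM in both TKO vehicle libraries and 70.8 to 70.9 CPM in wild-type vehicle cells, and endoderm markers to 572 to 605 CPM in TKO vehicle cells and 723 to 733 CPM in wild-type vehicle cells. Of 14 fibroblast markers, 9 were tested with vehicle, of which 5 were higher and 1 lower in TKO cells, and their sum was 50.45 to 50.6 CPM in TKO vehicle cells and 38.99 to 41.15 CPM in wild-type vehicle cells. The part of these genes in the results below was not tested. In bulk samples, fewer cells with a transcript and less transcript per cell cannot be told apart.

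A set of members was close to silent in every group. Of the 37, 7 stayed under 1 CPM in all 14 libraries: Isg15, Usp18, Ifit1, Ifit3, Ifih1, Mx2 and Ifi44. Isg15, a small protein that is joined to other proteins during antiviral defence, had 11 and 2 reads in TKO cells with inhibitor and 6 and 3 with vehicle, while wild-type cells had 12 and 8 reads with inhibitor and 3 and 3 with vehicle. In experiment 2, Isg15 had 1 and 7 reads in Tet1-KO TKO cells, 6 and 3 in TKO cells and 0 and 2 in wild-type cells. Its highest level was 0.342 CPM, in a wild-type inhibitor library. Usp18, the protease that removes ISG15, reached at most 0.309 CPM, and Ifih1, which encodes MDA5, at most 0.141 CPM. Ifi44 had 0 reads in 13 libraries and 2 reads in the other one. These 7 genes, apart from Ifit1 in experiment 2, had too few reads to be tested. Mx2 is annotated as a polymorphic pseudogene.

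The interferon ligands were also at or near 0. Of 21 ligand genes listed, 11 were matched, and the highest count for any of them in any library was 5 reads. Ifnb1, the interferon most cells make first after sensing RNA, had 0 reads in all 14 libraries. A count of 0 over a group allows up to 3 reads, or 0.0499 CPM in wild-type vehicle cells, and this limit covers counting error only.

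At the other end, 18 members were at 1 CPM or more in every library and 10 of them at 10 CPM or more. Set on a per-length scale (CPM per kilobase of exon, annotated lengths), Ifitm2, Ifitm3 and Ifitm1 had the highest medians over all libraries, at 257, 114 and 85.3 CPM per kb. Their proteins block virus entry at membranes. Trim25, a ubiquitin ligase that activates RIG-I, followed at 42.5 CPM per kb and Bst2, which tethers virus particles to the cell surface, at 41.95 CPM per kb. This order is that of the medians over all libraries, and below Ifitm2 the ranges of neighbours in it overlapped. Ifitm1 ran between 13.06 and 212 CPM per kb over libraries, Ifitm3 between 36.6 and 157, Trim25 between 31.7 and 63.5 and Bst2 between 14.3 and 69.8. The lowest Ifitm1 value and the highest Trim25 value were both in wild-type vehicle replicate 1, so the order of the medians did not hold there. The remaining 12 members crossed 1 CPM, with at least 1 library below it and at least 1 above. The map of levels shows all 37 members side by side.

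**Figure D1:**
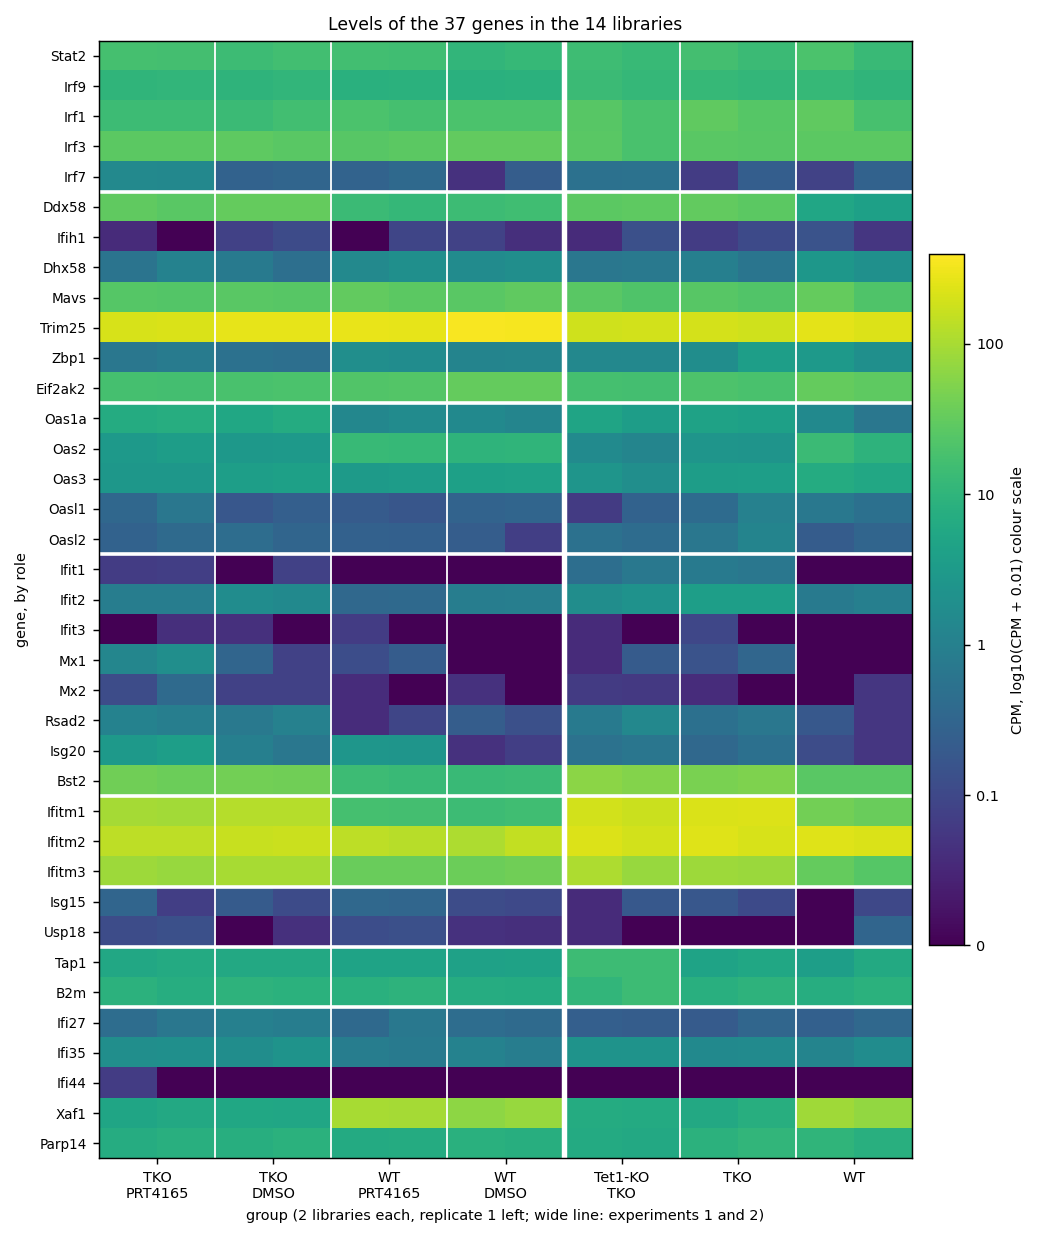
Level of each of the 37 genes (rows, grouped by role) in each of the 14 libraries (columns, 2 per group), as CPM on a log10(CPM + 0.01) colour scale. Rows such as Isg15, Ifit3 and Ifi44 are dark throughout, while Ifitm1 is brighter in every TKO library than in every wild-type library of the same experiment and Xaf1 darker.

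Promoter sequences (250 bases before to 50 after the annotated start, RefSeq, build GRCm38.p6) were found for 29 members. The core of the interferon-stimulated response element, written as GAAA, any 2 bases and GAAA again, was searched on both strands. It occurred in 14 of these 29 members (48.3%), against 3.99% of all genes with a window. The site bound by STAT dimers, TTC, any 3 bases and GAA, reads the same on both strands and occurred in 8 members (27.6%), against 9.55% of all genes. A match is a description of the letters and not a bound site. The 5 windows below are shown because they span the range of behaviour described in the next paragraphs, with matches to the response element core in capitals. Isg15 (chr4:156200769-156201068, minus strand) held 3 overlapping matches starting 78, 72 and 66 bases before the start, and was near silent. Oas1a (chr5:120907476-120907775, minus strand) held 2 overlapping matches at 20 and 14 bases before the start, and Ddx58 (chr4:40239776-40240075, minus strand) held 1 just after it, on the opposite strand. Ifitm1 (chr7:140967826-140968125, plus strand) and Xaf1 (chr11:72301379-72301678, plus strand) held no match in these windows.
Isg15: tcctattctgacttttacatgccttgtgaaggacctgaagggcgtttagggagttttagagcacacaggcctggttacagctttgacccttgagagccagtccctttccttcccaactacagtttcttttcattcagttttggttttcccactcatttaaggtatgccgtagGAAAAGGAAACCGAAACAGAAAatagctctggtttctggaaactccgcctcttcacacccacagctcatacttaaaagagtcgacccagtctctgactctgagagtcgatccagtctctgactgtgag
Oas1a: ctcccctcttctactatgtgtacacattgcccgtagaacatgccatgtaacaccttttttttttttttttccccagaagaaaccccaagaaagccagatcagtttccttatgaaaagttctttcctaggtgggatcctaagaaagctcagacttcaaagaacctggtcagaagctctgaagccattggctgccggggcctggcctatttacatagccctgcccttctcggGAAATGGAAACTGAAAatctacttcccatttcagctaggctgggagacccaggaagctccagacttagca
Ddx58: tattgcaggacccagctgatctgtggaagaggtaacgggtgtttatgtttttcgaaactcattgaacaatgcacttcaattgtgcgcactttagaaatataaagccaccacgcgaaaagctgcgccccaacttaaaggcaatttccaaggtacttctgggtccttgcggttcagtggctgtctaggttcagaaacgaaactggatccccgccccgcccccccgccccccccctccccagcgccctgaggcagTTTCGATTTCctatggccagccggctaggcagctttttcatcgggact
Ifitm1: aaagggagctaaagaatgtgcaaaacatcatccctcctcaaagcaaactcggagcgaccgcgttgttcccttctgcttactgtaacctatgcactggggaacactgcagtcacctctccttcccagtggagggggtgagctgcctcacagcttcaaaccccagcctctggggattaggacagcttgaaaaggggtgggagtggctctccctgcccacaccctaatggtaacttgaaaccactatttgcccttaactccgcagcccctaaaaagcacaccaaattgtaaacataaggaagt
Xaf1: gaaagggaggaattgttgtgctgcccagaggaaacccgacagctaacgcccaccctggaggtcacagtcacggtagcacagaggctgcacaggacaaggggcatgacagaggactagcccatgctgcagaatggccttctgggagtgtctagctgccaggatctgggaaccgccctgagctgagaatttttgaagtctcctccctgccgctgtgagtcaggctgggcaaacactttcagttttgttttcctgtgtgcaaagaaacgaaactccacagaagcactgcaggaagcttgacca

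The effect of the TKO genotype was measured in 3 settings that share no library: with vehicle, with inhibitor and untreated. With vehicle, 17 of the 30 tested members were higher in TKO than in wild-type cells and 8 were lower, where 34.8% and 34.2% of all 16711 genes tested were called in these directions. Together these were 83.3% of the tested members, against 69.0% of all genes. Under a stricter rule that adds a change of over 2-fold, 15 members passed, 50% of those tested, against 25.6% of all genes. With inhibitor, 13 were higher and 8 lower, where 36.2% and 34.0% of all genes were. In sum this was 70% of members against 70.2% of all genes, and 15 members passed 2-fold, 50% against 24.4%. In untreated cells, 10 were higher and 6 lower, where 25.9% and 24.3% of all genes were. In sum this was 53.3% of members against 50.2% of all genes, and 12 members passed 2-fold, 40% against 22.9%. The median log2 change of the tested members was 0.39 with vehicle, 0.23 with inhibitor and 0.10 untreated, beside 0.01, 0.03 and -0.00 over all genes. These medians were the same with members that had a group at 0 set to their lower bound. Calls are by the edgeR quasi-likelihood F-test at a Benjamini-Hochberg adjusted p under 0.05 over all genes. Of these calls, 18 with vehicle, 16 with inhibitor and 11 untreated held under every alternative and with any 1 library of the groups compared left out. A member that was silent in one group could be tested only because it was high in another, so counts among tested members cannot stand for all 37. Without TMM scaling the median of all genes moved up by 0.151 with vehicle and 0.145 with inhibitor, and the share of calls that were higher over all genes was 63.5% in place of 50.5% with vehicle and 63.8% in place of 51.5% with inhibitor.

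Of 29 members tested in both experiments, 12 were called the same way in all 3 settings, 41.4% against 40.8% of all genes. The 7 that were higher in TKO cells in all 3 were Ddx58, Oas1a, Ifit2, Rsad2, Bst2, Ifitm1 and Ifitm3. The 5 that were lower were Dhx58, Trim25, Eif2ak2, Oas2 and Xaf1. With the change over 2-fold in all 3, the share was 27.6% of members against 15.4% of all genes. In the promoter windows, 5 of the 7 higher members held the response element core, and of the 3 lower members with a window only Eif2ak2 did. The plot of genotype effects shows that the members did not move in one direction: changes ran from strongly negative for Xaf1 to strongly positive for Ifitm1 and Rsad2 in each setting.

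**Figure D2:**
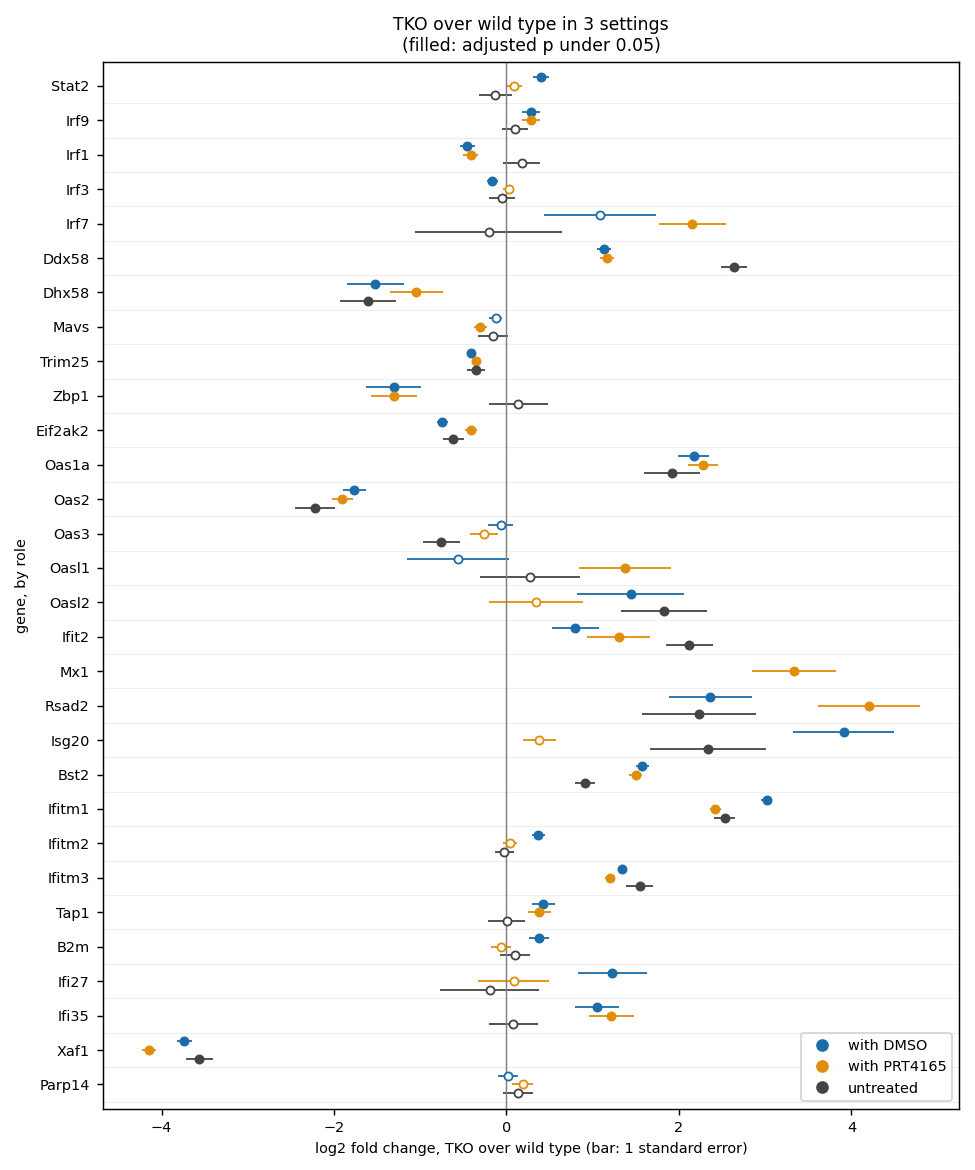
Log2 fold change of TKO over wild-type cells (horizontal axis) for each tested member (vertical axis) with DMSO, with PRT4165 and untreated, with bars of 1 standard error and filled points at an adjusted p under 0.05. Folds against a group with 0 reads are not drawn. Xaf1 lies at -3.74, -4.15 and -3.56 and Ifitm1 at 3.02, 2.42 and 2.53, while Irf9, Irf3 and Parp14 lie near 0.

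Of the 5 transcription factors among the members, Irf3, Irf1, Stat2 and Irf9 were at 8.18 CPM or more in every library, and none of these 4 passed 2-fold between TKO and wild-type cells. Stat2, a part of ISGF3 as is IRF9, was at 13.9 and 16.1 CPM in TKO vehicle cells, against 10.8 and 11.9 CPM in wild-type vehicle cells. Irf9 was at 9.80 and 10.8 CPM in TKO vehicle cells, against 8.18 and 8.74 CPM in wild-type vehicle cells. Stat2 was higher by 0.40 ± 0.09 (log2, SE; adjusted p = 0.000616) and Irf9 by 0.28 ± 0.11 (adjusted p = 0.021) with vehicle. Irf9 no longer passed with wild-type vehicle replicate 1 left out (log2 0.22) or with TKO vehicle replicate 2 left out (log2 0.22). Nor did it pass by DESeq2 (log2 0.29, adjusted p = 0.0671) or with no filter (log2 0.26, adjusted p = 0.0526). With inhibitor, Stat2 was at 17.15 and 17 CPM in TKO cells and 16.3 and 15.7 CPM in wild-type cells, and was not called. Untreated, Stat2 differed by -0.13 (adjusted p = 0.598) and Irf9 by 0.10 (adjusted p = 0.627), and the libraries of the groups overlapped. Irf1, an activator that interferon gamma raises, was lower, with a log2 difference of -0.45 with vehicle (adjusted p = 6.75e-05) and -0.42 with inhibitor (adjusted p = 0.000176), at 13.4 and 15.8 CPM in TKO vehicle cells against 19.9 and 20.1 CPM in wild-type vehicle cells. Irf3, the factor that RNA sensors activate directly, stayed between 18.6 and 31.5 CPM in all 14 libraries. Irf3 was lower, with a log2 difference of -0.17 with vehicle (adjusted p = 0.0256). That call was lost when TKO vehicle replicate 2 (log2 -0.11) or wild-type vehicle replicate 2 (log2 -0.17) was left out. It was also lost by DESeq2 (log2 -0.16, adjusted p = 0.113), with only the groups compared (log2 -0.15, adjusted p = 0.0607) and with no TMM scaling (log2 -0.02, adjusted p = 0.853). Of the 5 factors, edgeR called none in untreated cells, none passed an unadjusted p under 0.05, and DESeq2 called none. The exons of Irf9, Irf1, Irf3 and Irf7 overlap those of neighbouring genes over 45 to 135 bases, and reads there may come from either gene, since the strand setting of the counting is not given.

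Irf7, the factor that amplifies interferon production and is itself induced by interferon, was at 1.48 and 1.40 CPM in TKO inhibitor cells and at 0.285 and 0.367 CPM in wild-type inhibitor cells. It was thus higher in both TKO libraries with inhibitor, by 2.16 ± 0.39 (adjusted p = 3.28e-05). With vehicle Irf7 was at 0.269 and 0.301 CPM in TKO cells and at 0.0357 and 0.218 CPM in wild-type cells, and the difference of 1.08 did not pass (adjusted p = 0.141). Untreated TKO cells had 0.0569 and 0.226 CPM of Irf7 and untreated wild-type cells 0.0706 and 0.265 CPM, with overlapping libraries.

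The RNA sensors were split. Ddx58, which encodes RIG-I, was at 32.55 and 32.3 CPM in TKO vehicle cells against 14.2 and 15.3 CPM in wild-type vehicle cells. With inhibitor it was at 30.1 and 26.8 CPM in TKO cells against 13.7 and 11.5 CPM in wild-type cells, and untreated at 31.2 and 28.1 CPM in TKO cells against 5.33 and 4.10 CPM in wild-type cells. Every TKO library was above every wild-type library of its experiment. The log2 differences were 1.13 ± 0.08 (adjusted p = 9.46e-12), 1.16 ± 0.08 (adjusted p = 9.75e-12) and 2.64 ± 0.15 (adjusted p = 8.16e-08).

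Dhx58 encodes LGP2, a relative of RIG-I that lacks its signalling part, and it moved the other way. It was at 0.741 and 0.469 CPM in TKO vehicle cells against 1.64 and 1.84 CPM in wild-type vehicle cells, and at 0.938 and 0.613 CPM in untreated TKO cells against 2.72 and 2.03 CPM in untreated wild-type cells. Dhx58 was lower, with log2 differences of -1.52 with vehicle (adjusted p = 0.00024), -1.04 with inhibitor (adjusted p = 0.00382) and -1.61 untreated (adjusted p = 0.00158). The inhibitor call was lost without TKO inhibitor replicate 1 (log2 -0.65, adjusted p = 0.0964). Dhx58 shares 141 exon bases with its antisense gene Dhx58os, and reads there may come from either gene.

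Eif2ak2, which encodes the RNA-activated kinase PKR that stops translation, was at 19.1 and 19.9 CPM in TKO vehicle cells against 32.9 and 32.4 CPM in wild-type vehicle cells. Untreated, it was at 21.0 and 18.6 CPM in TKO cells against 32.3 and 28.5 CPM in wild-type cells. It was lower, with log2 differences of -0.74, -0.41 and -0.62 in the vehicle, inhibitor and untreated settings (adjusted p = 6e-10, 1.57e-05 and 0.00144). Trim25 was lower by smaller steps of -0.41, -0.35 and -0.35 (adjusted p = 1.1e-08, 1.73e-07 and 0.0115), at 270 ± 0.191 CPM in TKO vehicle cells and 358 ± 9.72 CPM in wild-type vehicle cells (SD, n = 2 each). Without TMM scaling the vehicle and inhibitor differences in Trim25 were -0.26 and -0.21 (adjusted p = 8.31e-06 and 0.000136), and that in Eif2ak2 with inhibitor was -0.26 (adjusted p = 0.00211). Without untreated TKO replicate 2 the untreated difference in Trim25 was -0.29 (adjusted p = 0.161). Zbp1, a sensor of Z-form nucleic acid that can start cell death, was lower with vehicle and with inhibitor, with a log2 difference of -1.31 in each setting (adjusted p = 0.000918 and 0.000153), but untreated it was at 1.76 and 3.71 CPM in TKO cells and 2.97 and 1.94 CPM in wild-type cells. Mavs, the adaptor that RIG-I and MDA5 share, stayed between 21.7 and 32.2 CPM in all 14 libraries. It was lower, with a log2 difference of -0.30 with inhibitor (adjusted p = 0.00102), a call that did not hold without wild-type inhibitor replicate 1 (log2 -0.21, adjusted p = 0.0502) or without TMM scaling (log2 -0.16, adjusted p = 0.0658).

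Among the 2-5A synthetases, which make the messenger that activates RNase L, neighbours on chromosome 5 moved in opposite directions. Oas1a was at 5.55 and 6.76 CPM in TKO vehicle cells against 1.5 and 1.24 CPM in wild-type vehicle cells, and at 4.38 and 4.10 CPM in untreated TKO cells against 1.52 and 0.662 CPM in untreated wild-type cells. It was higher by 2.17 ± 0.18, 2.28 ± 0.17 and 1.92 ± 0.32 with vehicle, with inhibitor and untreated (adjusted p = 1.32e-10, 2.69e-11 and 0.000405). Oas2 was at 2.86 and 2.98 CPM in TKO vehicle cells against 9.82 and 10.01 CPM in wild-type vehicle cells, and at 2.45 and 2.42 CPM in untreated TKO cells against 13.5 and 9.22 CPM in untreated wild-type cells. It was lower, with log2 differences of -1.76 ± 0.13, -1.90 ± 0.12 and -2.22 ± 0.23 (adjusted p = 1.93e-11, 1.09e-12 and 9.72e-06). No TKO library overlapped a wild-type library of its experiment for either gene. Oas3, the longest of the family, was at 3.74 and 4.12 CPM in TKO vehicle cells and 4.04 and 4.20 CPM in wild-type vehicle cells, a difference of -0.07 (adjusted p = 0.696). Oasl1 and Oasl2, which are OAS-like proteins, stayed at or under 1.19 CPM in all libraries. Oasl2 was called higher with vehicle and untreated (log2 1.44 and 1.82, adjusted p = 0.0429 and 0.00938) and Oasl1 with inhibitor (log2 1.37, adjusted p = 0.0256), but each of these calls was lost with 1 library left out, with adjusted p up to 0.39 without wild-type vehicle replicate 2, 0.126 without untreated TKO replicate 2 and 0.306 without TKO inhibitor replicate 2. The Oas1 genes resemble each other in sequence, so reads may be split among them or lost, and the level of Oas1a is uncertain to that extent.

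All but one of the antiviral effectors were under 4 CPM, and those called between genotypes were higher in TKO cells. Of 8, 5 were tested in each experiment, and 5 were higher with vehicle, 4 with inhibitor and 5 untreated, where 34.8%, 36.2% and 25.9% of all genes were. Members near 0 in wild-type cells, such as Mx1 in experiment 1 and Ifit1 in experiment 2, could be tested only through the groups where they had reads, so these counts do not stand for all 8. Rsad2, which encodes the antiviral enzyme viperin, was at 0.707 and 1.04 CPM in TKO vehicle cells against 0.214 and 0.124 CPM in wild-type vehicle cells, a difference of 2.36 ± 0.48 (adjusted p = 0.000134). With inhibitor, 69 reads in TKO cells stood against 3 in wild-type cells, a ratio of 19.95 with a 95% counting interval of 6.55 to 99.1. Untreated, Rsad2 was at 0.483 and 0.646 CPM in TKO cells against 0.177 and 0.0441 CPM in wild-type cells (log2 2.23, adjusted p = 0.0141), and that call was lost without wild-type replicate 2 (log2 1.65, adjusted p = 0.0851) and without TKO replicate 2 (log2 2.02, adjusted p = 0.0579), while without wild-type replicate 1 it was 3.55 (adjusted p = 0.0176). Bst2 was at 41.7 and 39.3 CPM in TKO vehicle cells against 13.3 and 13.9 CPM in wild-type vehicle cells, and at 46.9 and 52.2 CPM in untreated TKO cells against 26.1 and 26.6 CPM in untreated wild-type cells. Its differences were 1.58, 1.5 and 0.91 (adjusted p = 3.07e-15, 7.97e-15 and 4.02e-05). Bst2 lies on chromosome 8, whose tested genes had median log2 changes above those of the other autosomes by 0.344, 0.364 and 0.324 in the same 3 settings. The part of this shift in the result for Bst2 was not tested.

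The IFIT genes, whose proteins bind foreign RNA ends, lie together on chromosome 19. Ifit2 was at 1.68 and 1.51 CPM in TKO vehicle cells against 0.893 and 0.933 CPM in wild-type vehicle cells, and at 3.78 and 3.78 CPM in untreated TKO cells against 0.777 and 0.971 CPM in untreated wild-type cells. It was higher by 0.80 (adjusted p = 0.0116), 1.30 (adjusted p = 0.00263) and 2.12 (adjusted p = 5.62e-05) with vehicle, with inhibitor and untreated. With vehicle Ifit2 did not pass when wild-type replicate 1 (log2 0.75, adjusted p = 0.0603), wild-type replicate 2 (log2 0.81, adjusted p = 0.0536) or TKO replicate 1 (log2 0.72, adjusted p = 0.0834) was left out. Ifit1 had 27 and 20 reads in untreated TKO cells and 0 in both untreated wild-type libraries, so it was at least 12.01-fold higher (adjusted p = 0.000254 in the fit). In experiment 1 the same gene had 0 and 2 reads in TKO vehicle cells and 0 and 0 in wild-type vehicle cells, which is at the limit of detection. Ifit3 had at most 3 reads in any library. Whether the experiments differ for Ifit1 was not tested.

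Mx1, a GTPase that traps viral particles, had 9 and 2 reads in TKO vehicle cells and 0 in both wild-type vehicle libraries, at least 3.71-fold higher. Leaving out TKO vehicle replicate 1 ended the vehicle call (adjusted p = 0.103). With inhibitor Mx1 was at 1.26 and 1.90 CPM in TKO cells against 0.114 and 0.204 CPM in wild-type cells (log2 3.34, adjusted p = 2.25e-06). Untreated TKO cells had 5 and 10 reads and untreated wild-type cells 0 and 0, at least 3.95-fold higher, without enough reads to be tested. Isg20, an exonuclease that degrades RNA, had 48 reads in TKO vehicle cells and 3 in wild-type vehicle cells, a ratio of 16.2 with a counting interval of 5.21 to 81.1 (adjusted p = 2.33e-06). The fitted untreated difference in Isg20 was 2.34 (adjusted p = 0.0125), at 0.341 and 0.484 CPM in TKO cells against 0.106 and 0.0441 CPM in wild-type cells. It was lost without wild-type replicate 2 (log2 1.91, adjusted p = 0.0768) or TKO replicate 2 (log2 2.08, adjusted p = 0.0851), and by DESeq2 (adjusted p = 0.0552).

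The IFITM genes are clustered on chromosome 7, and in mice Ifitm1 and Ifitm3 are known markers of early germ cells. Ifitm1 was at 124 and 120 CPM in TKO vehicle cells against 14.3 and 15.7 CPM in wild-type vehicle cells, at 96.7 and 90.05 CPM in TKO inhibitor cells against 17.7 and 17.1 CPM in wild-type inhibitor cells, and at 217 and 232 CPM in untreated TKO cells against 42.6 and 35.1 CPM in untreated wild-type cells. It was higher by 3.02 ± 0.06, 2.42 ± 0.06 and 2.53 ± 0.12 (adjusted p = 1.8e-22, 1.02e-20 and 2.15e-08). Ifitm3 was at 98.1 and 98.1 CPM in TKO vehicle cells against 36.97 and 40.1 CPM in wild-type vehicle cells, and was higher by 1.35, 1.20 and 1.55 (adjusted p = 2.55e-16, 3.62e-15 and 7.86e-06). For both genes no TKO library overlapped a wild-type library of the same experiment. Ifitm2, whose promoter window lies on the same chromosome between positions 140955912 and 140956211, was at 167 and 171 CPM in TKO vehicle cells and 110 and 150 CPM in wild-type vehicle cells, a difference of 0.37 (adjusted p = 0.00021). The wild-type vehicle libraries stood apart, and the difference in Ifitm2 was 0.14 without wild-type vehicle replicate 1 (adjusted p = 0.0123) and 0.59 without replicate 2 (adjusted p = 1.87e-11). With inhibitor the difference in Ifitm2 was 0.04 (adjusted p = 0.675) and untreated -0.03 (adjusted p = 0.874), with overlapping libraries. The IFITM genes resemble each other in sequence, and Ifitm2 shares 268 exon bases with Gm45717, so reads may be split among them.

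Xaf1 showed the lowest fold of all tested members in each of the 3 settings. It encodes a protein that promotes cell death and is induced by interferon in other cells. It was at 5.52 and 5.22 CPM in TKO vehicle cells against 66.4 and 76.6 CPM in wild-type vehicle cells, at 5.12 and 5.997 CPM in TKO inhibitor cells against 99.7 and 97.1 CPM in wild-type inhibitor cells, and at 5.97 and 7.78 CPM in untreated TKO cells against 89.7 and 72.2 CPM in untreated wild-type cells. The differences were -3.74 ± 0.09, -4.15 ± 0.08 and -3.56 ± 0.16 (adjusted p = 1.6e-21, 8.87e-23 and 1.22e-08). Ifi35, an interferon-induced protein, was higher in the inhibitor and vehicle settings by 1.21 and 1.045 (adjusted p = 0.000245 and 0.000841) but untreated was at 1.51 and 1.55 CPM in TKO cells and 1.20 and 1.72 CPM in wild-type cells. Ifi35 shares 290 exon bases with Gm11626 on the opposite strand. Ifi27 was called higher with vehicle, at 1.01 and 0.871 CPM in TKO cells against 0.429 and 0.373 CPM in wild-type cells (log2 1.23, adjusted p = 0.00897), and not without TKO vehicle replicate 1 or wild-type vehicle replicate 2 (adjusted p = 0.0638 each). Parp14, an ADP-ribosyltransferase, differed by 0.02, 0.19 and 0.14 (adjusted p = 0.881, 0.167 and 0.548).

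**Figure D3:**
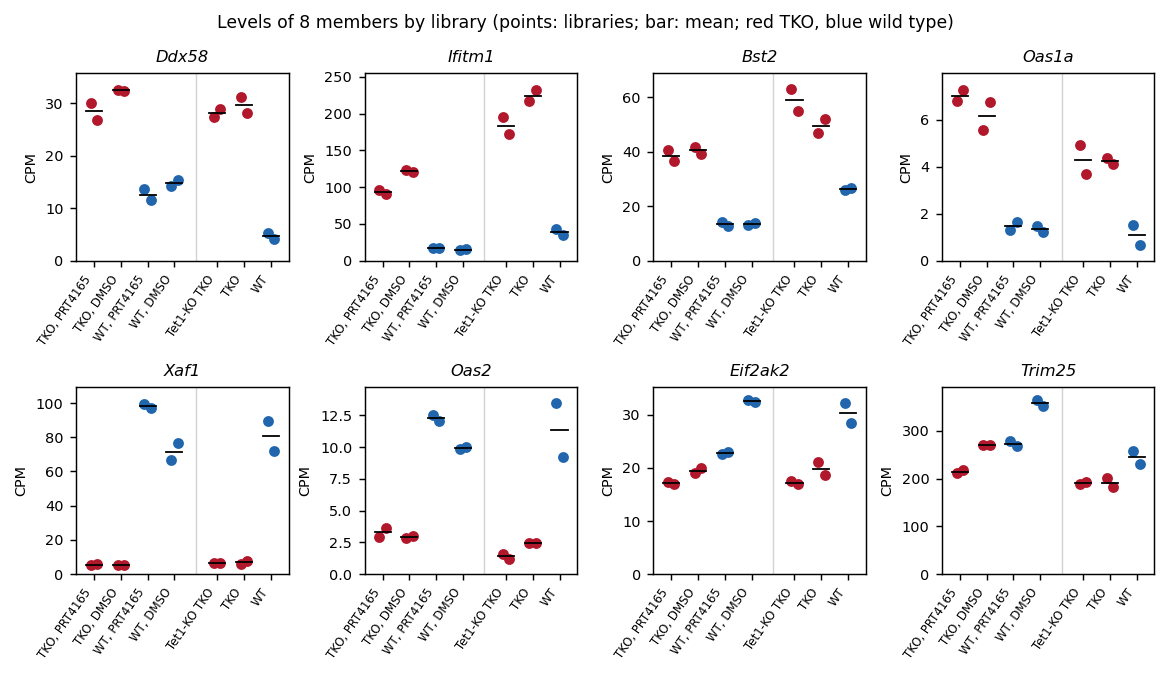
CPM (vertical axis, from 0) of 8 members in the 7 groups, with a point for each library, a bar at the mean, TKO in red and wild type in blue, and experiments 1 and 2 left and right of the grey line. Ddx58, Ifitm1, Bst2 and Oas1a are higher in every TKO library than in the wild-type libraries of the same experiment, and Xaf1, Oas2 and Eif2ak2 lower. Trim25 in TKO vehicle cells (270 CPM) is close to its level in wild-type inhibitor cells (273 CPM).

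Genes of the same pathway outside the 37 were taken from lists. Of 6 receptor genes, all tested, 3 were higher and 1 lower in TKO cells with vehicle, 66.7% beside 69.0% of all genes. In sum 83.3% were called with inhibitor and 83.3% untreated, beside 70.2% and 50.2% of all genes. Ifnar1, a chain of the receptor for interferon alpha and beta, was at 54.9 and 54.9 CPM in TKO vehicle cells against 44.8 and 48.7 CPM in wild-type vehicle cells. Ifnar2, the other chain, was lower in TKO cells, at 4.44 and 5.42 CPM in TKO vehicle cells against 6.29 and 7.62 CPM in wild-type vehicle cells (log2 -0.50, adjusted p = 0.00259) and at 4.66 and 4.04 CPM in untreated TKO cells against 8.68 and 8.87 CPM in untreated wild-type cells (log2 -1.01, adjusted p = 0.000589). Of 10 genes of the JAK-STAT chain, 5 were higher and 3 lower with vehicle, 80% beside 69.0% of all genes. In sum 80% were called with inhibitor and 50% untreated, beside 70.2% and 50.2% of all genes.

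Of 18 tested genes among 20 further sensors and adaptors, 7 were higher and 6 lower with vehicle, 72.2% beside 69.0% of all genes. In sum 83.3% were called with inhibitor and 44.4% untreated, beside 70.2% and 50.2% of all genes. Aim2, a sensor of DNA, was at 16.1 and 14.5 CPM in TKO vehicle cells against 0.893 and 0.902 CPM in wild-type vehicle cells (log2 4.08, adjusted p = 6.25e-17), and Rnf135, which activates RIG-I, was higher by 2.73 (adjusted p = 7.98e-10). Myd88 and Irf5, which serve Toll-like receptors, were lower, with log2 differences of -1.13 and -1.72 (adjusted p = 3.25e-10 and 1.65e-10). Of 12 tested genes for nucleic acid clearance and editing, 4 were higher and 7 lower with vehicle, 91.7% beside the same 69.0%. By direction these were 33.3% and 58.3%, beside 34.8% and 34.2% of all genes. Past 2-fold there was 1, 8.33% against 25.6% of all genes. With inhibitor 4 were higher and 7 lower, in sum 91.7% beside 70.2% of all genes. Untreated, 4 were higher and 4 lower, in sum 66.7% beside 50.2%. Adar, which edits double-stranded RNA and keeps it from the sensors, was at 57.0 and 60.4 CPM in TKO vehicle cells against 82.3 and 83.5 CPM in wild-type vehicle cells (log2 -0.50, adjusted p = 5e-09). A list of 48 further interferon-stimulated genes had 47 matched and 33 tested, of which 21 were higher and 6 lower with vehicle, 63.6% and 18.2% beside 34.8% and 34.2% of all genes. With inhibitor 20 were higher and 4 lower, 60.6% and 12.1% beside 36.2% and 34.0%, and untreated 18 and 3 of 32, 56.2% and 9.38% beside 25.9% and 24.3%. The median log2 changes of this list were 1.23, 0.87 and 0.91. The 14 or 15 untested genes of that list had too few reads, and a gene near silent in wild-type cells could be tested only through TKO cells, so these counts do not describe the whole list. Lgals9, a galectin, was at 36.5 and 36.4 CPM in TKO vehicle cells against 4.68 and 4.45 CPM in wild-type vehicle cells (log2 2.999, adjusted p = 3.03e-19), and Pml, the scaffold of nuclear bodies, was at 112 and 116 CPM in TKO vehicle cells against 255 and 273 CPM in wild-type vehicle cells (log2 -1.21, adjusted p = 1.02e-16).

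PRT4165 was compared with vehicle within each genotype. Of 11 stem cell markers, 8 were lower with inhibitor and 0 higher in each genotype, 72.7% beside 19.6% of all genes lower in TKO cells and 18.7% in wild-type cells. Of 10 trophoblast markers, 6 were higher and 1 lower in TKO cells, and 4 higher and 0 lower in wild-type cells. The part of these shifts in the results for the members was not tested. In TKO cells, 3 of 30 tested members were higher and 8 lower with inhibitor, where 19.9% and 19.6% of all genes were, in sum 36.7% of members beside 39.5% of all genes. Past 2-fold there were 3 members, 10% against 6.69% of all genes. In wild-type cells 7 were higher and 4 lower, where 19.0% and 18.7% of all genes were, in sum 36.7% of members beside 37.6% of all genes. Past 2-fold there were again 3, 10% against 6.97%. In TKO cells the count of lower calls was 5 with any 1 library of the 2 groups left out. In wild-type cells the count of higher calls was 3 without wild-type vehicle replicate 1. The median log2 change of members was -0.07 in TKO cells and 0.02 in wild-type cells. The members past 2-fold were Isg20, Mx1 and Irf7 in TKO cells, and Isg20, Mx1 and, in the lower direction, Ifit2 in wild-type cells, all at 3.79 CPM or less in the groups compared.

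Isg20 was at 2.96 and 3.79 CPM in TKO inhibitor cells against 0.943 and 0.670 CPM in TKO vehicle cells, and at 2.65 and 2.49 CPM in wild-type inhibitor cells against 0.0357 and 0.0622 CPM in wild-type vehicle cells. It was higher with inhibitor in both genotypes, by 2.06 ± 0.24 in TKO cells (adjusted p = 3.16e-07) and, in wild-type cells, by a ratio of 51.8 with a counting interval of 17.4 to 254, from 154 reads against 3 (adjusted p = 8.27e-10). The difference between these effects, TKO minus wild type, was -3.53 ± 0.65 (adjusted p = 0.00177). With inhibitor, the difference of 0.38 ± 0.19 between TKO and wild-type cells did not pass (adjusted p = 0.0838).

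Mx1 was at 1.26 and 1.90 CPM in TKO inhibitor cells against 0.303 and 0.067 CPM in TKO vehicle cells, a difference of 3.06 ± 0.47 (adjusted p = 1.65e-05). In wild-type cells it had 4 and 5 reads with inhibitor and 0 and 0 with vehicle, at least 3.19-fold higher, and it did not pass when vehicle replicate 1 (adjusted p = 0.0636), vehicle replicate 2 (adjusted p = 0.0775) or inhibitor replicate 2 (adjusted p = 0.0842) was left out. Irf7 was higher with inhibitor in TKO cells by 2.32 ± 0.40 (adjusted p = 5.88e-05), from the levels given above, and in wild-type cells by 1.25, which did not pass (adjusted p = 0.128). The difference between the 2 effects was 1.07 for Irf7 (adjusted p = 0.539).

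The more abundant members moved by small steps with inhibitor. Trim25 was lower in TKO cells, with a log2 difference of -0.33 (adjusted p = 2.13e-06), and in wild-type cells, with one of -0.39 (adjusted p = 1.82e-07). In TKO cells Ifitm1 was lower, with a log2 difference of -0.38 ± 0.05 (adjusted p = 1.53e-06), at 93.4 ± 4.68 CPM with inhibitor and 122 ± 2.41 CPM with vehicle (SD, n = 2 each), and Ifitm3 had a difference of -0.28 ± 0.05 (adjusted p = 0.000169). In wild-type cells Ifitm1 was at 17.4 ± 0.426 CPM with inhibitor and 15.01 ± 1.02 CPM with vehicle, a difference of 0.21 ± 0.08 (adjusted p = 0.0288) that did not pass when vehicle replicate 1 (log2 0.16, adjusted p = 0.176) or inhibitor replicate 1 (log2 0.19, adjusted p = 0.151) was left out. The difference between the effects on Ifitm1 was -0.60 ± 0.09 (adjusted p = 0.000206). Eif2ak2 was lower in wild-type cells, with a log2 difference of -0.52 (adjusted p = 1.23e-06), and Xaf1 was higher there by 0.46 (adjusted p = 1.55e-06). Stat2 was also higher in wild-type cells, by 0.49 (adjusted p = 0.000178), a call that held in every alternative. Its levels there were 16.3 and 15.7 CPM with inhibitor against 10.8 and 11.9 CPM with vehicle. In TKO cells Stat2 was not called. In wild-type cells Ifit2 was at 0.342 and 0.367 CPM with inhibitor against 0.893 and 0.933 CPM with vehicle (log2 -1.36, adjusted p = 0.00461), a call that was lost without wild-type inhibitor replicate 1 (log2 -1.30, adjusted p = 0.0506).

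The interaction of genotype and inhibitor was called for 2 of 30 tested members, Isg20 and Ifitm1, both lower, 6.67% beside 2.12% of all genes called lower and 3.89% in either direction. Isg20 alone passed 2-fold, 3.33% against 0.886% of all genes. No member was called higher by edgeR, where 1.77% of all genes were, or by DESeq2, 1 was by edgeR with DESeq2 size factors, and 3 had an unadjusted p under 0.05 in that direction. Without wild-type vehicle replicate 2 there were 4 lower calls. The 4 inhibitor and genotype comparisons of experiment 1 share groups with each other, so their values stand side by side without a test of overlap.

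**Figure D4:**
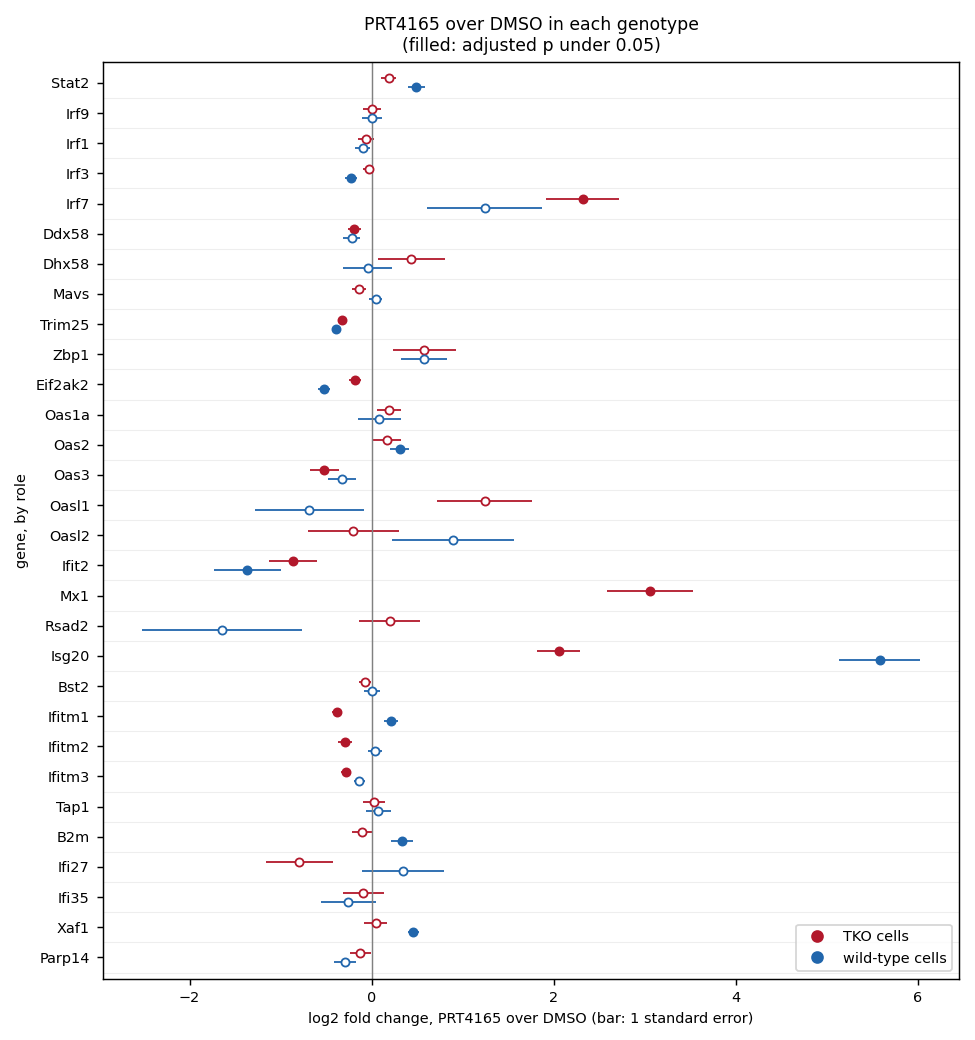
Log2 fold change of PRT4165 over DMSO (horizontal axis) for each tested member (vertical axis) in TKO cells (red) and wild-type cells (blue), with bars of 1 standard error and filled points at an adjusted p under 0.05. Mx1 in wild-type cells, where vehicle libraries had 0 reads, is not drawn. Isg20 lies at 2.06 and 5.58, Irf7 at 2.32 and 1.25, and most other members lie near 0.

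Loss of Tet1 was measured on the TKO background. Dnmt3a was lower in the same comparison, as given above, and its part in the results was not tested. Of 30 tested members, 1 was higher and 5 lower in Tet1-KO TKO than in TKO cells, where 11.6% and 10.4% of all 16303 genes tested were. In sum this was 20% of members beside 22.0% of all genes, and 2 members passed 2-fold, 6.67% against 7.98%. Marker lists moved in the same comparison: trophoblast markers summed to 617 to 774 CPM in Tet1-KO TKO cells and 206 to 208 CPM in TKO cells, with 9 of 10 called higher, and of 7 tested endoderm markers 6 were higher, with sums of 425 to 1051 CPM in Tet1-KO TKO cells and 280.2 to 458 CPM in TKO cells. Their part in the results for the members was not tested. The higher one was Tap1, which carries peptides into the endoplasmic reticulum for display on MHC class I. Tap1 was at 14.4 and 14.4 CPM in Tet1-KO TKO cells, 4.58 and 5.42 CPM in TKO cells and 3.85 and 6.22 CPM in wild-type cells, so both Tet1-KO TKO libraries were above the other 4 of experiment 2. The difference was 1.53 ± 0.20 against TKO cells (adjusted p = 0.000404) and 1.53 ± 0.21 against wild-type cells (adjusted p = 7.64e-05), and it held in every alternative. Tap1 shares 212 exon bases with Psmb9 on the opposite strand. In experiment 1 Tap1 was at 5.96 and 5.89 CPM in TKO vehicle cells and 4.32 and 4.48 CPM in wild-type vehicle cells (log2 0.43, adjusted p = 0.00641), while untreated TKO and wild-type cells showed no call (adjusted p = 0.998) with overlapping libraries.

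B2m, the light chain of MHC class I, was at 10.7 and 13.97 CPM in Tet1-KO TKO cells, 8.13 and 9.33 CPM in TKO cells and 7.48 and 8.82 CPM in wild-type cells. Its difference of 0.50 between Tet1-KO TKO and TKO cells did not pass (adjusted p = 0.0555), but B2m passed in 4 of 10 alternatives, with adjusted p between 0.0145 and 0.324 over all of them. Among class I genes outside the 37, H2-K1, a heavy chain, was at 50.3 and 54.1 CPM in Tet1-KO TKO cells, 31.4 and 38.3 CPM in TKO cells and 20.2 and 20.8 CPM in wild-type cells, higher in Tet1-KO TKO than in TKO cells by 0.58 (adjusted p = 0.0044) and in TKO than in wild-type cells by 0.77 (adjusted p = 0.000268). Psme2, a proteasome activator subunit, was lower in Tet1-KO TKO than in TKO cells, with a log2 difference of -0.75 (adjusted p = 0.000764), and Nlrc5, an activator of class I genes, was at 0.215 and 0.172 CPM in Tet1-KO TKO cells against 0.569 and 0.775 CPM in TKO cells (log2 -1.78, adjusted p = 0.0198). Of 14 tested genes in that list, 2 were higher and 3 lower with Tet1 loss, 14.3% and 21.4% beside 11.6% and 10.4% of all genes. H2 genes resemble each other in sequence and may share reads.

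The 5 members that were lower with Tet1 loss were Oas2, Oas3, Oasl1, Ifit2 and Parp14, and each of these calls was lost when a single library was left out. The number of members that edgeR called lower was 0 without TKO replicate 2, 2 with either Tet1-KO TKO library left out, and 3 without TKO replicate 1. With all libraries the differences ran from -2.07 for Oasl1 (adjusted p = 0.0417) to -0.65 for Parp14 (adjusted p = 0.0202). Oas2 was at 1.58 and 1.23 CPM in Tet1-KO TKO cells against 2.45 and 2.42 CPM in TKO cells, and without TKO replicate 2 its difference was -0.80 (adjusted p = 0.126). Ifit2 was at 1.80 and 2.23 CPM in Tet1-KO TKO cells against 3.78 and 3.78 CPM in TKO cells, and without TKO replicate 2 its difference was -0.90 (adjusted p = 0.0939). Irf7 was at 0.510 and 0.540 CPM in Tet1-KO TKO cells against 0.0569 and 0.226 CPM in TKO cells, a difference of 1.91 that did not pass (adjusted p = 0.0552). Irf7 passed in 3 of the 9 alternatives that gave an adjusted p, which lay between 0.0205 and 0.377.

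Against wild type, Tet1-KO TKO cells had 11 higher and 8 lower members of 30, where 26.3% and 24.4% of all genes were. In sum this was 63.3% of members beside 50.7% of all genes, and 15 members passed 2-fold, 50% against 24.1%. Ifit1 had 17 and 28 reads in Tet1-KO TKO cells and 0 in both wild-type libraries, at least 9.72-fold higher. Ddx58 was at 27.4 and 28.9 CPM in Tet1-KO TKO cells, against 5.33 and 4.10 CPM in wild-type cells. Ifitm1 was at 195 and 173 CPM in Tet1-KO TKO cells, against 42.6 and 35.1 CPM in wild-type cells. Xaf1 was at 6.77 and 6.53 CPM in Tet1-KO TKO cells, against 89.7 and 72.2 CPM in wild-type cells. None of these libraries overlapped, and for none of the 3 genes did the difference between Tet1-KO TKO and TKO cells pass (adjusted p = 0.728 for Ddx58, 0.086 for Ifitm1 and 0.874 for Xaf1). These comparisons share the TKO or the wild-type libraries with those above.

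**Figure D5:**
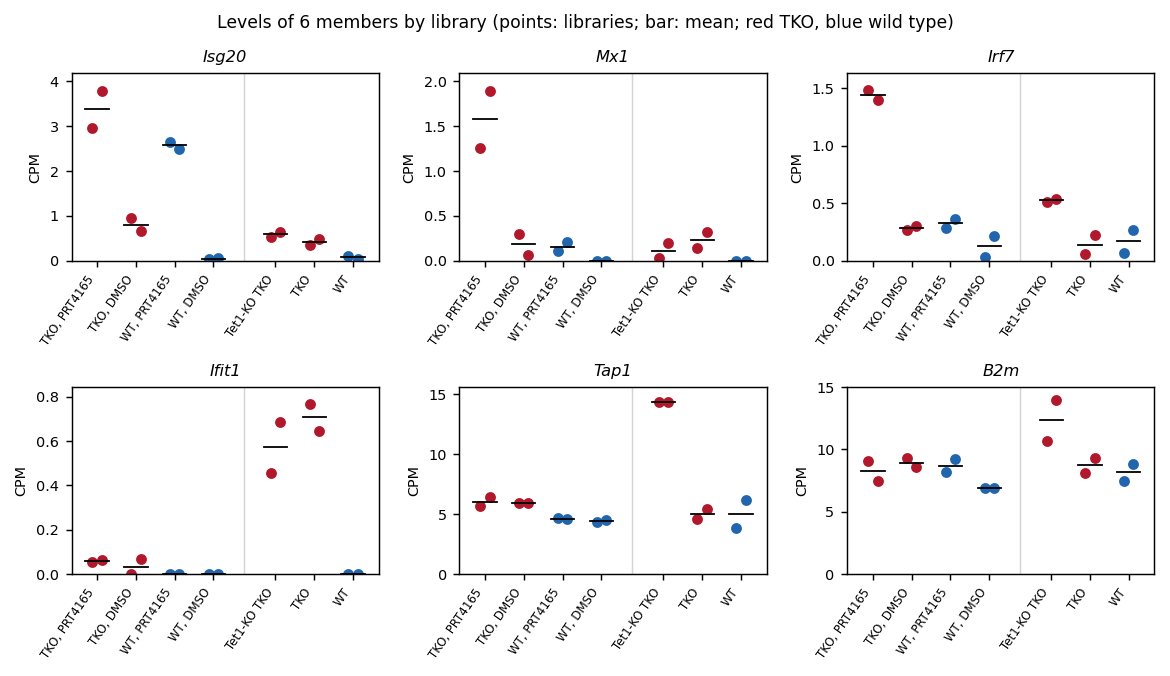
CPM (vertical axis, from 0) of 6 members in the 7 groups, with a point for each library, a bar at the mean, TKO in red and wild type in blue, and experiments 1 and 2 left and right of the grey line. Isg20 is high in both inhibitor groups, Mx1 and Irf7 are highest in TKO inhibitor cells, Ifit1 has reads mainly in the TKO and Tet1-KO TKO groups of experiment 2, and Tap1 is highest in Tet1-KO TKO cells.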

How the data were processed

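Poly(A) RNA libraries were made with NEBNext Ultra reagents and sequenced on an Illumina HiSeq instrument, per the labels' protocols. The authors deposited 2 tables of raw read counts per Ensembl gene, 1 per experiment, and the submitters' processing notes name the build mm9 with HTSeq 0.5.3p9, TopHat2 2.0.2 and Bowtie 0.12.8. The strand setting is not given in the sources used here, nor is the annotation release. Exon lengths and overlaps come from GENCODE M21, and promoter windows from RefSeq GRCm38.p6, so neither is in the counting build.

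Genes passing filterByExpr (minimum count 10, total 15) were tested in edgeR 4.0.16 (R 4.3.3) by the quasi-likelihood F-test after TMM scaling, with 1 fit per experiment over all its groups: 16711 genes in experiment 1 and 16303 in experiment 2. Benjamini-Hochberg adjustment ran over all tested genes, with 0.05 as the threshold. Fold changes are log2 of the first group named over the second, with a standard error. CPM were given as mean ± SD over 2 libraries. DESeq2 1.42.0, other scalings, no filter, a replicate block, only the groups compared and leaving out each library were tried as alternatives. The scripts were tested on simulated data.

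Where a group had 0 reads, the fold is a lower bound against 3 reads over the group. With 1 to 3 reads it is a ratio of summed reads with an exact 95% interval, which covers counting error only. All 37 members could be named, and from each pathway list up to 4 called genes in each direction with the smallest p and no overlap between libraries. The members and lists were chosen with earlier results of these data known.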

Additional observations from a re-analysis of the deposited data

Results flagged for a closer look

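The effect of PRT4165 differed between genotypes for 2 members, by the interaction test of the edgeR quasi-likelihood fit. For Isg20 the effect in TKO cells minus that in wild-type cells was -3.53 on the log2 scale (adjusted p = 0.00177), with both TKO libraries and both wild-type libraries higher with inhibitor. Wild-type vehicle cells had 3 Isg20 reads in all, so the size of this difference rests on a small count. For Ifitm1 it was -0.595 (adjusted p = 0.000206), with both TKO libraries lower and both wild-type libraries higher with inhibitor than with vehicle.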

How the results depend on the processing

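The genotype counts moved by less than 1.5 times under the other scalings, DESeq2, no filter, the replicate block and the fits of only the groups compared. In wild-type cells 7 members were called higher with inhibitor, against 4 by DESeq2 and 3 to 6 with 1 library left out. In TKO cells 8 were called lower with inhibitor, against 3 by DESeq2 and 5 with any 1 library left out. The interaction gave 0 higher calls, against 1 with DESeq2 size factors, and 2 lower calls, against 2 to 4 with 1 library left out. Between Tet1-KO TKO and TKO cells 1 member was called higher, against 3 with no filter, 3 under the replicate block, 3 with only the groups compared and 1 to 2 with 1 library left out, and 5 were called lower, against 0 to 3 with 1 library left out. The calls gained there were B2m and Irf7, with adjusted p of 0.025 and 0.0205 with no filter, 0.0145 and 0.027 under the replicate block, and 0.0462 and 0.0404 with only the groups compared. The cause of these moves was not tested. Ifitm2 in wild-type cells had a log2 difference with inhibitor of 0.039 with all libraries, of -0.154 when vehicle replicate 1 was left out (adjusted p = 0.0174) and of 0.290 when vehicle replicate 2 was (adjusted p = 5.58e-05).

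Without TMM scaling, 40.6% of the calls over all genes between Tet1-KO TKO and TKO cells were higher, against 52.9% with it. The labels do not say whether same-numbered libraries share a culture, batch or day. Their deviations correlated by -0.0345 to 0.0384 in experiment 1 and by 0.111 to 0.236 in experiment 2. The replicate block called 8790 genes in place of 8187 between TKO and wild-type cells, and 4498 in place of 3584 between Tet1-KO TKO and TKO cells. A shared origin of these libraries was not tested. In each experiment 7 members had too few reads to be tested, so they have no call, and differences in them may be missed at this depth. By reads alone, Mx1 was at least 3.95-fold higher in untreated TKO than in wild-type cells. In the same comparison Usp18 was at least 3.405-fold lower in TKO cells, with 0 reads against 7. Mx2 had 16 reads (4 and 12) in TKO and 1 in wild-type inhibitor cells, a ratio of 13.9 with a 95% counting interval of 2.16 to 582. Usp18 had 1 read in Tet1-KO TKO and 7 in untreated wild-type cells, all 7 in the same library (ratio 0.0934, interval 0.00207 to 0.727).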
